A study of Pyrus communis with 12 samples.

Results

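The oxoglutarate/iron-dependent oxygenases of pear were followed in the skins of young fruits of 2 cultivars, ‘Clapp Favorite’ (‘CF’) and ‘Red Clapp Favorite’ (‘RCF’), a red mutant that arose from it. A gene of the deposited table was taken as a member when its domain name contained "Oxoglutarate/iron-dependent" or "Isopenicillin N synthase". Of 42760 genes, 191 met this rule, and the flavonoid enzymes F3H (PCP013732) and ANS (PCP027029) were set aside, which left 189 members. Of these, 188 carried the oxygenase domain name and 1, PCP014264, the isopenicillin N synthase name.

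Enzymes of this family use iron, oxygen and, in most cases, 2-oxoglutarate to hydroxylate, desaturate or close rings in their substrates. In plants they make ethylene from 1-aminocyclopropane-1-carboxylate (ACC oxidase), make and inactivate gibberellins, and modify flavonoids, coumarins and salicylic acid. Ethylene and gibberellins are hormones of fruit set and early fruit growth, the period sampled here.

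The libraries were 3 replicates each of ‘CF’ and ‘RCF’ at 2 days after full bloom (DAFB; ‘CF1’ and ‘RCF1’), when both had green fruits, and 3 each at 5 DAFB (‘CF2’ and ‘RCF2’), when their color differed. The trees behind all 12 libraries were 6 years old and stood on Pyrus betulaefolia rootstocks, and each replicate pooled the skins of 100 fruits. Nothing in the labels says that replicates came from separate trees, so the P-values measure only the spread between these pools. The values are FPKM, the fragments counted per unit of gene length and per unit of mapped fragments.

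The 12 libraries summed to between 575131 and 636409 FPKM. From the steps of the lowest values, their depth ranged from 0.64 to 1.01 of that of ‘CF2’ replicate 1, so a gene near 0 rests on few fragments. The domain names held 1 gene of cuticle wax elongation, FAE1, at 0.426 to 1.80 FPKM, which is too little to check the skin label. The 54 chlorophyll a/b binding genes, markers of green tissue, of which 7 were at 0 throughout, summed to 3831 to 4829 FPKM in ‘CF1’ and 2755 to 3472 in ‘RCF1’. At 5 DAFB they summed to 4927 to 5450 in ‘CF2’ and 3496 to 3991 in ‘RCF2’, below ‘CF’ at both stages. Genes with a pollen domain name, 43 with 4 at 0 throughout, summed to 3115 to 3688 FPKM at 2 DAFB and 3478 to 3773 at 5 DAFB. They were taken by that word in the name alone, and whether they mark pollen was not tested. The part of these lists in the differences below was not tested. In bulk skins, fewer cells of a type cannot be told apart from less RNA per cell.

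The replicates of ‘CF1’ lay far apart, for these genes and over all tested genes. Among the 82 members tested, Pearson's r across genes of log2(FPKM + 1) was 0.667 between ‘CF1’ replicates 2 and 3, 0.871 between replicates 1 and 2, and 0.885 between replicates 1 and 3. In the other groups it was 0.967 to 0.993. Across all tested genes, r was 0.9643 between ‘CF1’ replicates 1 and 2, 0.9114 between 1 and 3, and 0.8435 between 2 and 3. Of the 12 libraries, ‘CF1’ replicate 3 was the lowest for 44.7% of all tested genes and the highest for 22.7%. Among the members these shares were 31.7% and 35.4%. Replicate 3 deviated by over 1 log2 unit from the average of replicates 1 and 2 for 29 members (35.4%), against 18.4% of all tested genes, and replicate 2 deviated as far from replicates 1 and 3 for 28 (34.1%), against 13.2%. For many genes they stood on opposite sides. Replicate 2 was above and replicate 3 below for 11 members, and the reverse held for 12. ‘CF1’ replicate 3 also had the highest summed FPKM of the 64 laccase genes, markers of lignifying tissue of which 13 were at 0, at 104.7, while the other libraries had 37.8 to 62.0. The part of this in the results was not tested. Counts of called members are given with single libraries left out, as values or ranges. For single genes this is done only in some cases.

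Most members were weakly expressed. In the whole table, 44 of the 189 were at 0 in every library (23.3%, against 18.2% of all genes), and another 63 were detected but stayed below an FPKM of 1 in all but at most 2 libraries. The remaining 82 (43.4%, against 60.1% of all genes) reached 1 FPKM in 3 or more libraries and were tested. An FPKM of at least 10 in 3 libraries was reached by 36 members (19.0%, against 30.0% of all genes). Of the untested members the highest value was 4.46 FPKM, that of PCP010204 in ‘CF1’ replicate 3. Of the 82, 8 passed only through libraries of 2 DAFB and 1, PCP027835, only through libraries of 5 DAFB, so that a stage difference of these genes was partly set by the filter. In the same way, PCP013133 passed only through ‘RCF’ libraries and PCP029751 only through ‘CF’ libraries, so a cultivar difference of these genes was partly set by it.

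A few genes held much of the family's expression. The summed FPKM of all members was 1761 to 2450 in ‘CF1’, 1811 to 2358 in ‘RCF1’, 1612 to 1706 in ‘CF2’ and 1733 to 1817 in ‘RCF2’. The genes with the highest means, PCP003899, PCP022897 and PCP029997, for which no enzyme name was at hand, together made up 19.9 to 56.7% of that sum, and the 10 highest made up 45.1 to 76.0%. Without the top 3, the sum was 1056 to 1411 FPKM in ‘CF1’ and 904 to 1119 in ‘RCF1’, above the 740 to 771 in ‘CF2’ and 780 to 832 in ‘RCF2’. The sums of the remaining genes thus did not overlap between stages, while those of all members did. Of the 3 left out, PCP029997 had means of 117 and 141 FPKM in ‘CF1’ and ‘RCF1’, and 256 and 303 in ‘CF2’ and ‘RCF2’. PCP022897 went the other way, from 329 and 546 to 244 and 259, and PCP003899 differed little.

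The most abundant member, PCP003899, differed little between groups, with 207 to 604 FPKM in ‘CF1’, 370 to 481 in ‘RCF1’, 377 to 440 in ‘CF2’ and 394 to 439 in ‘RCF2’, and was called in no comparison. PCP022897 had 269, 599 and 119 FPKM in ‘CF1’, 603, 618 and 418 in ‘RCF1’, 243, 248 and 241 in ‘CF2’ and 279, 243 and 255 in ‘RCF2’. It was higher in every ‘RCF1’ than in every ‘RCF2’ library and its ‘CF1’ libraries spread across the whole range.

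Each pairwise comparison was fitted with limma on log2(FPKM + 1), on the 6 libraries of its groups and all 25707 genes that passed the filter. DEGs, or called genes, were those with an unadjusted P below 0.05 whose level differed by 1 log2 unit or more in either direction. The P adjusted over all tested genes (Benjamini-Hochberg) is given beside. On this scale the change of a gene near 0 FPKM comes out too small. In all, 37 of the 82 tested members were DEGs in at least 1 pairwise comparison (45.1%, against 20.9% of all tested genes) and 45 in none. Some of the 37 had passed the filter only through 1 stage or 1 cultivar, which in part set their calls.

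**Figure D1:**
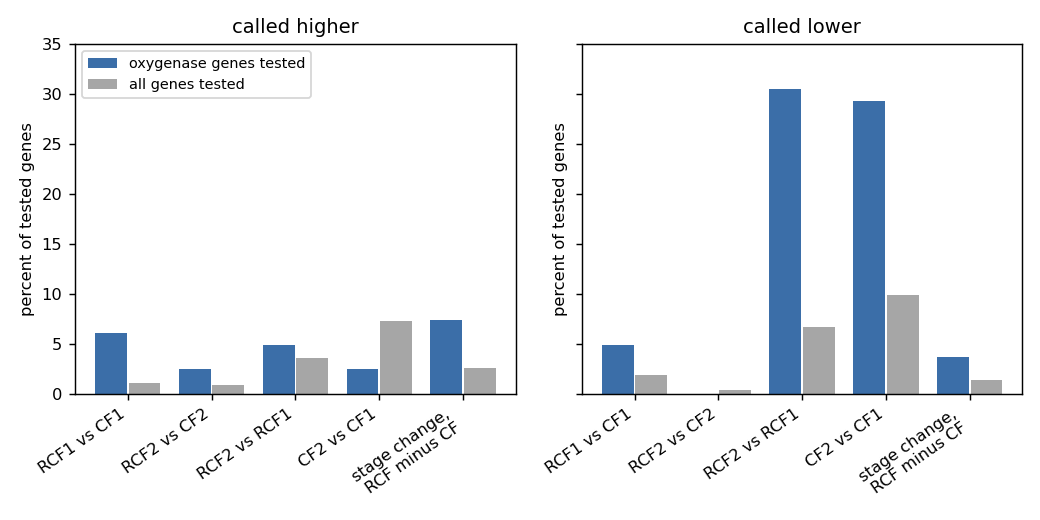
Percent of tested genes called higher (left) and lower (right) in each comparison, for the 82 oxygenase genes tested (blue) and all 25707 genes tested (grey); the last pair of bars is the difference between cultivars in the stage change. The tallest blue bars, 30.5% and 29.3%, are the genes lower at 5 DAFB in ‘RCF’ and in ‘CF’.

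The change from 2 to 5 DAFB involved the most members, and in both cultivars nearly all of these DEGs were lower at 5 DAFB. In ‘RCF2’ vs. ‘RCF1’, 25 of the 82 tested members were lower (30.5%, against 6.71% of all tested genes) and 4 were higher (4.88%, against 3.54%). All 29 held at an adjusted P under 0.05 (35.4%, against 10.2% of all tested genes). In ‘CF2’ vs. ‘CF1’, 24 were lower (29.3%, against 9.91%) and 2 were higher (2.44%, against 7.23%), and 23 of the 26 held after adjustment (28.0%, against 12.6%). The median log2 fold change of the tested members was -0.35 in ‘RCF’ and -0.30 in ‘CF’, while that of all tested genes was 0.02 and 0.16.

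The lower lists of the cultivars, which come from different libraries, shared 19 genes, which is 76.0% of the list of ‘RCF’ and 79.2% of that of ‘CF’. Over all tested genes the shared part was 79.5% of the ‘RCF’ list and 53.9% of the ‘CF’ list. Of the 8 members that had passed the filter only through 2 DAFB libraries, 7 were in the list of each cultivar. Among the 73 members that passed through libraries of both stages, 18 were lower in ‘RCF’ (24.7%, against 5.44% of all such genes) and 17 in ‘CF’ (23.3%, against 8.35%). Across the 82 members, which are not independent replicates, the changes in ‘CF’ and ‘RCF’ correlated at r = 0.811, beside 0.845 across all tested genes. In ‘CF2’ vs. ‘CF1’ the adjusted calls were less stable than the unadjusted ones. Their number went from 23 to 0 without ‘CF2’ replicate 1 or replicate 2, to 5 without ‘CF2’ replicate 3 and to 13 without ‘CF1’ replicate 1, while the unadjusted calls stayed between 23 and 33.

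**Figure D2:**
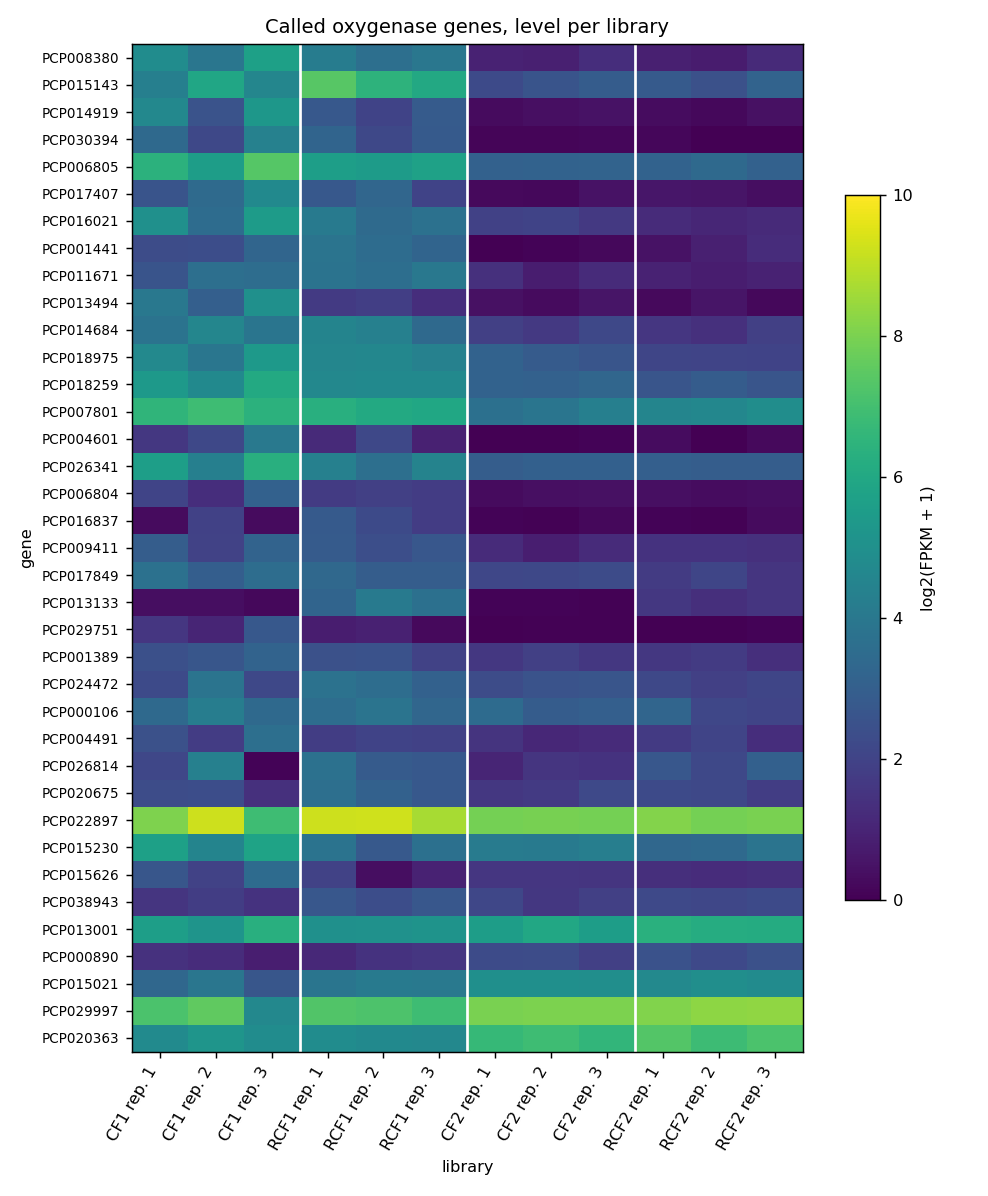
Level of the 37 oxygenase genes called in at least 1 pairwise comparison (rows) in each of the 12 libraries (columns), as log2(FPKM + 1); rows are ordered by the mean of the stage changes in both cultivars. The upper rows are dark in all 6 libraries of 5 DAFB, and ‘CF1’ replicate 3 often differs from the other ‘CF1’ columns.

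Genes with a place in ethylene and gibberellin metabolism were among those that fell. Names were at hand for 12 tested members and missing for the other 70. They come from lists of genes that the study had called changed in these libraries. That a named gene changed is therefore no independent result. ACC oxidase makes ethylene in the last step of its pathway. PCP013494, named ACC oxidase 1 in the supplementary tables of the study, lies on scaffold00389 from 22896 to 26348, in the coordinates of the table, whose genome build was not settled. It had 14.9, 7.22 and 31.6 FPKM in ‘CF1’, 2.22, 2.58 and 1.45 in ‘RCF1’, 0.379, 0.231 and 0.465 in ‘CF2’ and 0.198, 0.483 and 0.170 in ‘RCF2’. Every ‘CF1’ library was above every ‘RCF1’ library, both were above all libraries of 5 DAFB, and ‘CF2’ and ‘RCF2’ overlapped. Its log2 fold change was -3.58 ± 0.48 (SE) in ‘CF2’ vs. ‘CF1’ (limma, adjusted P = 0.0106) and -1.26 ± 0.18 in ‘RCF2’ vs. ‘RCF1’ (adjusted P = 0.000913). Between cultivars at 2 DAFB it was -2.41 ± 0.50, a mean 8.59 times lower in ‘RCF1’, which did not hold after adjustment (limma, adjusted P = 0.185) but was called with any 1 library left out. Without ‘CF1’ replicate 3 it was -1.91.

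PCP013133 showed the opposite difference between cultivars. It lies on scaffold00089 from 269676 to 270975, and the KEGG table of the study lists it under cysteine and methionine metabolism beside a gene with a cysteine synthase domain, with cyanoalanine or cysteine synthase and ACC oxidase as the enzymes, so ACC oxidase is read here as its entry. It had 0.287, 0.295 and 0.159 FPKM in ‘CF1’ and 8.31, 16.4 and 12.1 in ‘RCF1’. At 5 DAFB it had 0.0735, 0.0727 and 0.0381 FPKM in ‘CF2’ and 2.07, 1.54 and 1.92 in ‘RCF2’. No ‘CF’ library reached the lowest ‘RCF’ library of either stage.

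It was the only member called between cultivars at both stages, at log2 fold changes of 3.37 ± 0.24 in ‘RCF1’ vs. ‘CF1’ (limma, adjusted P = 0.0425) and 1.42 ± 0.10 in ‘RCF2’ vs. ‘CF2’ (limma, adjusted P = 0.00104). The mean FPKM was 49.6 times higher in ‘RCF1’ than in ‘CF1’ and 30.0 times higher in ‘RCF2’ than in ‘CF2’. As the gene was tested only because of its level in ‘RCF’, these calls are in part set by the filter. With no filter on FPKM the log2 fold changes were the same, with adjusted P of 0.0871 and 0.0178 by limma. The ratios are imprecise, since the ‘CF2’ values, scaled by relative depth, stand near 2, 2 and 1 times the smallest, and those of ‘CF1’ near 5, 7 and 3 times, so that they may rest on as few fragments. With a pseudocount of 0.1 the log2 fold changes were 5.13 and 3.59. The unadjusted call at 2 DAFB was kept under every alternative that kept the gene in the test, with adjusted P from 5.47e-05 to 0.409 by limma. The adjusted call was lost with a pseudocount of 0.1, no filter, quantile normalization or a replicate block. It was also lost on leaving out any single library but ‘CF1’ replicate 3. At 5 DAFB the call was kept with adjusted P from 0.000721 to 0.0178 by limma. Within ‘RCF’ it fell from 2 to 5 DAFB, at -2.18 ± 0.21 (limma, adjusted P = 0.000154).

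By unadjusted calls, the 2 ACC oxidase genes thus differed between the cultivars in opposite directions at 2 DAFB. The genes listed under the GO term of ACC synthase, which makes the substrate of ACC oxidase, were 7, chosen by the study for their change in these libraries and so no independent evidence of direction. All 7 were lower in ‘CF2’ vs. ‘CF1’ with an adjusted P under 0.05 and 5 were lower in ‘RCF2’ vs. ‘RCF1’, with medians of -2.11 and -1.34. The lowest changes, -5.07 and -3.32, were those of PCP027577, whose domain name is that of a tyrosine transaminase, while the other 6 carry a pyridoxal phosphate-dependent transferase domain. Between cultivars, 1 of the 7 was lower in ‘RCF1’ vs. ‘CF1’ with no adjusted call and a median of -0.70, and none was called at 5 DAFB, where the median was 0.03. The PCP045133 gene with the cysteine synthase domain, listed with PCP013133 above, had 239.7, 114.3 and 501.2 FPKM in ‘CF1’, 59.9, 53.6 and 54.7 in ‘RCF1’, and 11.5 to 15.7 at 5 DAFB.

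**Figure D3:**
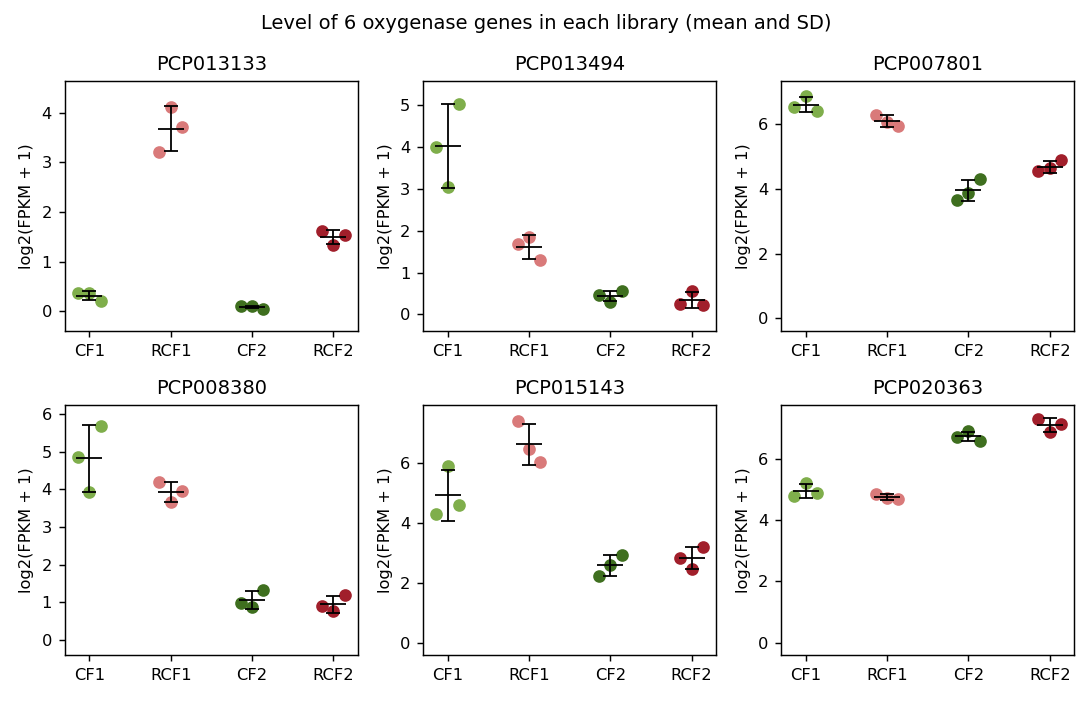
log2(FPKM + 1) of 6 oxygenase genes in each library (points), with the mean and SD of the 3 replicates of each group (black). PCP013133 is near 0 in all 6 ‘CF’ libraries and above 1 in all 6 ‘RCF’ libraries, PCP020363 is higher at 5 DAFB, and the other 4 genes are highest at 2 DAFB.

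PCP007801 and PCP008380 are read here as gibberellin 2-beta-dioxygenases, enzymes that inactivate gibberellins. The KEGG table of the study lists them under diterpenoid biosynthesis with a cytochrome P450 and gives the enzymes of the row, gibberellin 2-beta-dioxygenase and ent-kaurenoic acid hydroxylase, without saying which gene is which. PCP007801 lies on scaffold02825 from 1 to 6807. It had 91.8, 117 and 84.5 FPKM in ‘CF1’, 78.0, 66.1 and 60.5 in ‘RCF1’, 11.8, 13.7 and 19.0 in ‘CF2’ and 22.4, 23.9 and 28.8 in ‘RCF2’. All libraries of 2 DAFB were above all of 5 DAFB, ‘CF’ was above ‘RCF’ at 2 DAFB and below it at 5 DAFB, with no overlap at either stage. The stage change was -2.65 ± 0.22 in ‘CF’ (limma, adjusted P = 0.00664) and -1.41 ± 0.12 in ‘RCF’ (limma, adjusted P = 9.47e-05). The cultivar differences of -0.51 and 0.73 were below the fold threshold.

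PCP008380, on scaffold00106 from 286896 to 288850, had 27.9, 14.2 and 50.6 FPKM in ‘CF1’ and 17.3, 11.6 and 14.7 in ‘RCF1’. It had 0.965, 0.823 and 1.5 FPKM in ‘CF2’ and 0.852, 0.694 and 1.3 in ‘RCF2’. It fell by 3.77 on the log2 scale in ‘CF’ (limma, adjusted P = 0.00885) and by 2.99 in ‘RCF’ (limma, adjusted P = 1.42e-05), which are mean levels 28.2 and 15.3 times lower at 5 DAFB, and the cultivars overlapped at both stages. The gene therefore changed with stage and was not called between cultivars.

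Several other genes named after known oxygenases, again from the study's lists of changed genes, fell as well. PCP018259 was named after the DMR6-like oxygenase 2 by the NR database and after SRG1 by the SwissProt database. It had 41.5, 26.1 and 65.9 FPKM in ‘CF1’ and 24.6, 25.7 and 25.6 in ‘RCF1’, against 5.26 to 8.94 over the 6 libraries of 5 DAFB. In Arabidopsis, DMR6 hydroxylates salicylic acid, and whether PCP018259 does so was not tested. The log2 fold changes were -2.23 ± 0.32 in ‘CF’ and -1.98 ± 0.09 in ‘RCF’. PCP030394, named after AOP1, a member of a group known in Arabidopsis for glucosinolate side chains, had 9.81, 3.52 and 20.2 FPKM in ‘CF1’ and 8.41, 3.51 and 6.03 in ‘RCF1’. It had at most 0.138 FPKM at 5 DAFB and was listed at 0 in ‘RCF2’ replicates 2 and 3. Its log2 fold changes were -3.19 ± 0.53 in ‘CF’ and -2.68 ± 0.25 in ‘RCF’.

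The genes named SRG1-like by NR, after a senescence-related gene of Arabidopsis, did not move one way. SwissProt named them after other probable dioxygenases. PCP015143 had 18.7, 58.7 and 23.1 FPKM in ‘CF1’, 166, 86.9 and 65 in ‘RCF1’, 3.75, 5.00 and 6.56 in ‘CF2’ and 6.04, 4.52 and 8.16 in ‘RCF2’. Its ‘RCF1’ libraries were above all others, and its change in ‘RCF2’ vs. ‘RCF1’, -3.80 ± 0.33 (limma, adjusted P = 9.49e-05), was the lowest of the 82 members in that comparison. The difference of 1.70 ± 0.53 in ‘RCF1’ vs. ‘CF1’ (limma, adjusted P = 0.275) was not called without ‘CF1’ replicate 1 or without ‘RCF1’ replicate 1. PCP016837 had 0.219, 2.78 and 0.233 FPKM in ‘CF1’ and 6.21, 3.74 and 2.43 in ‘RCF1’, so the groups overlapped, at a difference of 1.46 ± 0.52 whose call was lost without ‘CF1’ replicate 1 or 3 or ‘RCF1’ replicate 1 or 2, and it fell to at most 0.218 in all libraries of 5 DAFB. PCP015021 rose instead, from 9.12, 14.1 and 5.30 FPKM in ‘CF1’ to 30.2, 30.9 and 29.6 in ‘CF2’ (1.66 ± 0.31, limma, adjusted P = 0.0205), while ‘RCF1’ had 14 to 15.8 and ‘RCF2’ 25.0 to 29.6, a change of 0.82 that was not called.

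Among the members without an enzyme name, PCP006805 fell from 85.0, 46.0 and 162 FPKM in ‘CF1’ and 48.2, 43.6 and 51.5 in ‘RCF1’ to between 7.55 and 9.83 in all libraries of 5 DAFB. Its neighbor on scaffold00085, PCP006804, with a mean of 1.79 FPKM over the 12 libraries, was called lower in both cultivars too. PCP014919 had 24.6, 4.88 and 37.9 FPKM in ‘CF1’, 5.81, 3.05 and 6.24 in ‘RCF1’ and 0.166 to 0.408 at 5 DAFB, while the next member on scaffold00250, PCP014920, stayed at 2.38 to 6.11 in all 12 libraries. PCP011671 had 5.13, 11.5 and 11.1 FPKM in ‘CF1’, 12.9, 11.3 and 15.0 in ‘RCF1’, and 0.746 to 1.60 at 5 DAFB. A further gene near 0 at 5 DAFB was PCP017407, with 5.13, 10 and 25.9 FPKM in ‘CF1’, 5.70, 8.84 and 2.98 in ‘RCF1’ and at most 0.526 later. PCP016021 fell from 31.5, 10.6 and 43.3 in ‘CF1’ to 2.82, 3.03 and 2.15 in ‘CF2’. It stayed at 1.13 to 3.03 FPKM in all libraries of 5 DAFB. PCP014684 had 9.80 to 22.9 FPKM over the libraries of 2 DAFB and 1.64 to 3.55 over those of 5 DAFB. PCP018975 was lower in ‘RCF2’, at 3.06 to 3.21 FPKM, than in ‘CF2’, at 5.25 to 7.79, with 14.3 to 40.3 in the libraries of 2 DAFB. The cultivar difference of -0.83 at 5 DAFB was below the fold threshold. In the whole table, 37 members lay in 18 runs of adjacent members, and at least 2 of a run were tested in 3 of them. Adjacent copies may share reads, and how the fragments were divided between them was not tested.

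Few members were higher at 5 DAFB. PCP020363 had 26.5, 35.8 and 28.3 FPKM in ‘CF1’ and 27.9, 25.7 and 24.7 in ‘RCF1’, against 104, 118 and 95.1 in ‘CF2’ and 158, 116 and 141 in ‘RCF2’. It was the only member called higher in both cultivars, at 1.78 ± 0.16 in ‘CF’ (limma, adjusted P = 0.00702) and 2.35 ± 0.12 in ‘RCF’ (limma, adjusted P = 9.48e-06). PCP029997 rose in ‘RCF’ from 155, 148 and 119 to 272, 316 and 322 FPKM (1.11 ± 0.12), a call lost without ‘RCF1’ replicate 3, at 0.99, and in 1 fit of all libraries. In ‘CF’ it had 142, 185 and 24.4 FPKM at 2 DAFB and 251 to 260 at 5 DAFB, a change of 1.55 ± 0.74 that was not called (limma, adjusted P = 0.151) and was 0.65 without ‘CF1’ replicate 3. PCP013001, which the study listed under flavonoid biosynthesis with no enzyme given for the single gene, rose in ‘RCF’ from 31.8, 32.3 and 34.1 to 80.1, 72.0 and 70.4 FPKM (1.15 ± 0.07). In ‘CF’ it had 48.2, 35.5 and 78.4 at 2 DAFB and 46.5, 62.6 and 46.4 at 5 DAFB, with full overlap. PCP000890, named after feruloyl-CoA ortho-hydroxylase 1, an enzyme of coumarin synthesis, had 1.23, 1.73 and 1.98 FPKM in ‘RCF1’ and 4.74, 3.67 and 4.63 in ‘RCF2’ (1.02 ± 0.14). The call was lost without ‘RCF1’ replicate 1 or without ‘RCF2’ replicate 1 or 3, at 0.90 to 0.98, and its change of 0.98 in ‘CF’ lay just below the threshold.

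The flavonoid enzymes of the same fold that were set aside went up. F3H had 39.4 to 53.0 FPKM in ‘CF1’ and 36.9 to 41.8 in ‘RCF1’, against 128.4 to 171.0 in ‘CF2’ and 171.7 to 208.0 in ‘RCF2’. ANS, which makes anthocyanidins, had 16.0 to 22.1 FPKM in the libraries of 2 DAFB, 130.9 to 202.2 in ‘CF2’ and 236.2 to 292.4 in ‘RCF2’, and its difference between cultivars at 5 DAFB was 0.70 ± 0.16 (limma, adjusted P = 0.0423). The 33 other oxygenases with an iron and oxoglutarate chemistry, mostly prolyl 4-hydroxylases and JmjC proteins, had few calls. Of the 30 that were tested, 1 was called lower in ‘RCF2’ vs. ‘RCF1’, against 6.71% of all tested genes. None was called in ‘CF2’ vs. ‘CF1’, against 9.91% lower and 7.23% higher over all tested genes. Their medians were -0.05 and 0.00. In ‘RCF1’ vs. ‘CF1’, 1 of the 30 was higher, against 1.02% of all tested genes. With 30 genes such shares are coarse.

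Between the cultivars at 2 DAFB, 9 members were DEGs. In ‘RCF1’ vs. ‘CF1’, 5 of the 82 were higher (6.10%, against 1.02% of all tested genes) and 4 were lower (4.88%, against 1.87%). Only PCP013133 held after adjustment, 1 of 82 (1.22%, against 0.0233% of all tested genes). As this gene passed the filter only through ‘RCF’ libraries, that share was in part set by the filter. The median was -0.07 for the members and 0.12 for all tested genes. Among the 80 members that passed through libraries of both cultivars, 4 were higher (5.00%, against 0.981% of all such genes) and 3 lower (3.75%, against 1.77%). Besides the genes above, PCP015230 was lower, with 50.6, 21.7 and 54.2 FPKM in ‘CF1’ and 12.9, 5.85 and 11.8 in ‘RCF1’. Its groups did not overlap, at -1.91 ± 0.44 (limma, adjusted P = 0.211), and it was called with any 1 library left out. PCP029751 had 1.98, 1.02 and 5.70 FPKM in ‘CF1’ and 0.728, 0.884 and 0.178 in ‘RCF1’, and its call was lost on leaving out any library but ‘CF1’ replicate 2. PCP015626 had 5.32, 2.88 and 10.2 against 2.91, 0.301 and 0.953 FPKM, with overlap, and its call was lost without ‘CF1’ replicate 1 or ‘RCF1’ replicate 2 or 3.

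The higher genes were PCP013133, PCP015143, PCP016837, PCP020675 and PCP038943. PCP020675 had 3.98, 4.2 and 1.62 FPKM in ‘CF1’ and 11.7, 7.68 and 5.67 in ‘RCF1’, at 1.15 ± 0.36, and was not called without ‘CF1’ replicate 3 or ‘RCF1’ replicate 1. PCP038943 had 1.88, 2.5 and 1.75 FPKM in ‘CF1’ and 5.65, 4.12 and 5.63 in ‘RCF1’, at 1.01 ± 0.17, at the edge of the fold threshold and lost when replicate 1 or 3 of either group was left out. For both, the groups did not overlap.

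The number of calls at 2 DAFB depended on single libraries. Without ‘CF1’ replicate 2 it was 27 (15 higher and 12 lower), and the share of all tested genes called was then 9.18%. Leaving out ‘RCF1’ replicate 1 gave 4 members (2.29% of all tested genes). It was 5 without ‘CF1’ replicate 1 (2.14%), and 6 when ‘CF1’ replicate 3 was dropped (2.05%). The calls over all genes thus rose with those of the members when ‘CF1’ replicate 2 was left out. PCP013133, PCP013494 and PCP015230 were called with any 1 library left out. Members that entered the list without ‘CF1’ replicate 2 included PCP026814, with 3.32, 19.6 and 0.0676 FPKM in ‘CF1’, and PCP035390, with 5.17, 29.6 and 0.207. In ‘RCF1’ they had 12.3, 6.26 and 5.76, and 24.8, 14 and 8.92 FPKM. These genes were high in ‘CF1’ replicate 2 and near 0 in ‘CF1’ replicate 3, with ‘RCF1’ in between.

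**Figure D4:**
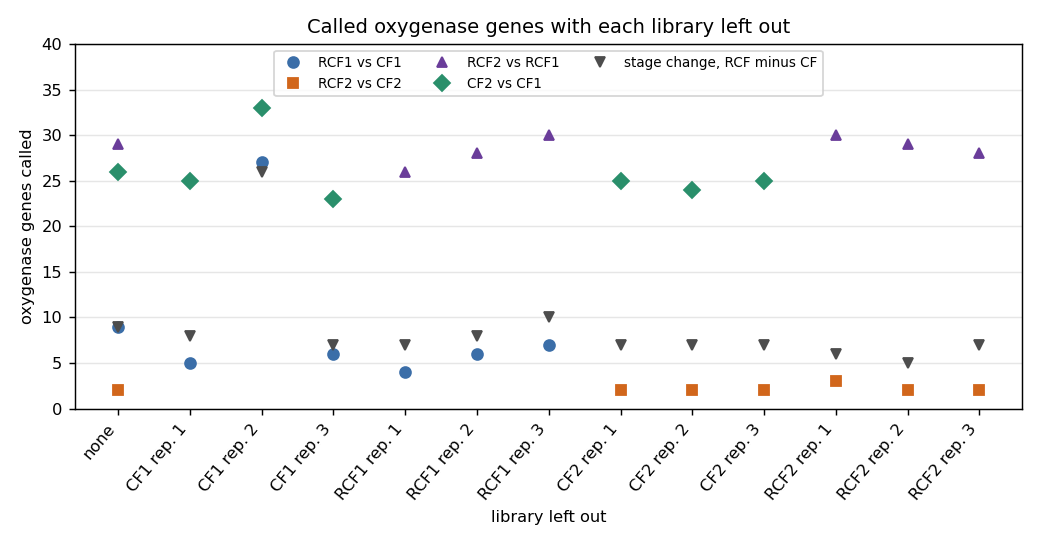
Number of oxygenase genes called (vertical axis) with no library or 1 library left out (horizontal axis), for the 4 pairwise comparisons and the difference between cultivars in the stage change. The points without ‘CF1’ replicate 2 stand at 27 for ‘RCF1’ vs. ‘CF1’ and 26 for the difference, against 9 and 9 with all libraries.

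At 5 DAFB, when the fruits differed in color, 2 members were higher in ‘RCF2’ vs. ‘CF2’ (2.44%, against 0.902% of all tested genes) and none was lower by limma, against 0.358% of all tested genes, while 24 of the 82 had an unadjusted P under 0.05 (29.3%, against 24.4%). Both held after adjustment (2.44%, against 1.07%). Among members that passed through libraries of both cultivars, 1 of 80 was higher (1.25%, against 0.89% of such genes). The member median and that of all tested genes were both -0.01, and 69 of the 82 members lay within 0.5 of 0. The genes were PCP013133, above, and PCP026814, with 1.02, 1.94 and 1.78 FPKM in ‘CF2’ and 5.59, 3.55 and 7.27 in ‘RCF2’. PCP026814 did not overlap between the groups, at 1.3 ± 0.24 (limma, adjusted P = 0.0222), and was not called in 1 fit of all 12 libraries.

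The number of calls at this stage depended on the pseudocount. With 0.1 in place of 1, 7 members were called (4 higher and 3 lower), and 2.66% of all tested genes. Among those added was PCP001441, with 0.0167, 0.0704 and 0.147 FPKM in ‘CF2’ and 0.401, 0.846 and 1.41 in ‘RCF2’, and with 4.05 to 13.4 in all libraries of 2 DAFB. Its log2 fold change was 0.77 with a pseudocount of 1 and 2.39 with 0.1. Its groups did not overlap, at levels where few fragments are counted. Among those called lower was PCP016021, with 2.15 to 3.03 FPKM in ‘CF2’ and 1.13 to 1.36 in ‘RCF2’. Its log2 fold change with a pseudocount of 0.1 was -1.02.

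Whether the stage change differed between the cultivars was tested as an interaction term in all 12 libraries. By limma, 6 members had a higher change in ‘RCF’ than in ‘CF’ (7.32%, against 2.59% of all tested genes) and 3 a lower one (3.66%, against 1.37%). Among them, PCP013133 had passed the filter only through ‘RCF’ libraries and PCP029751 only through ‘CF’ libraries. Their calls were in part set by the filter. In this fit none held after adjustment, and 15 of the 82 had an unadjusted P under 0.05 (18.3%, against 15.8%). Array weights gave 14 adjusted calls among members, beside 1502 among all 25707 tested genes. Without ‘CF1’ replicate 2 there were 18, beside 1809, and without ‘CF1’ replicate 3 there were 4, beside 160. The other alternatives gave 0 or 1. Of the 9, PCP007801, PCP013133 and PCP013494 were called with any 1 library left out. PCP013494 fell less in ‘RCF’, at a difference of 2.33 ± 0.55 (limma, adjusted P = 0.126) and its level in ‘RCF1’ was below that in ‘CF1’. PCP007801 also fell less in ‘RCF’, at 1.24 ± 0.26 (limma, adjusted P = 0.110). PCP013133 fell more in ‘RCF’, at -1.95 ± 0.27 (limma, adjusted P = 0.0594) and stayed at or below 0.295 FPKM in all ‘CF’ libraries. With a pseudocount of 0.1 that difference was -1.54 ± 0.40. The mean FPKM of this gene fell 6.66-fold in ‘RCF’ and 4.02-fold in ‘CF’, which is a difference of -0.73 between the log2 ratios of means, given with no test. The count was 26 without ‘CF1’ replicate 2 (11.2% of all tested genes called) and 5 without ‘RCF2’ replicate 2 (3.04%).

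**Figure D5:**
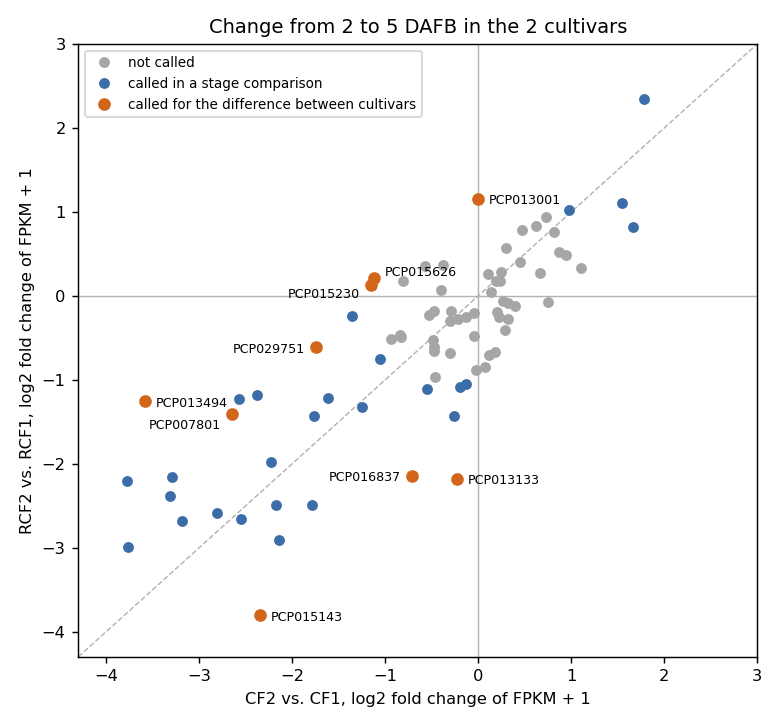
Log2 fold change from 2 to 5 DAFB in ‘CF’ (horizontal axis) and ‘RCF’ (vertical axis) of the 82 oxygenase genes tested; the dashed line marks equal change. Grey points were not called, blue points were called in a stage comparison, and the 9 orange points were called for the difference between cultivars, among them PCP013494 at -3.58 and -1.26 and PCP013133 at -0.23 and -2.18.

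The remaining members showed no called difference. Of the 45 tested members called in none of the 4 pairwise comparisons, PCP014264, the isopenicillin N synthase gene, had 10 to 16.9 FPKM in all 12 libraries. PCP014923 had 30.5 to 54.2 FPKM and PCP004025 23.5 to 35.4, both below the fold threshold in each comparison. PCP014599, among the 10 highest by mean, had 28.4 to 59.6 FPKM in ‘CF1’ and 64.1 to 79.2 over the libraries of 5 DAFB, a change of 0.86 in ‘CF’ that was not called. Of the 107 members below the filter, PCP029534 was at 0 in all 6 libraries of 5 DAFB and had 0.280 to 2.01 FPKM in ‘CF1’ and 0.0400 to 0.820 in ‘RCF1’.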

How the data were processed

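The authors sequenced mRNA of pear skins and deposited 1 table of FPKM values for 42760 genes in 12 libraries, computed from mapped reads. The submitters' processing notes name Trimmomatic 0.38, HISAT2 2.1.0, StringTie 1.3.4d and DESeq2. Reads were mapped to apple sequence according to the study, but the genes in the table have PCP identifiers and lie on scaffolds. Which build the positions refer to was not settled, so they are printed as the table gives them. None of the 189 members matched the 42167 genes of the annotation at hand, and no sequences were printed. Counts were not used here, so limma was run in place of a count test. Columns that belong to no sample were not used.

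Genes that reached 1 FPKM in 3 or more libraries were taken as log2(FPKM + 1), and limma (lmFit, eBayes with trend, two-sided) gave all P-values, adjusted over all tested genes by Benjamini-Hochberg. An exact permutation test of 3 against 3 libraries cannot go below 0.1. Versions are those of Python 3.11.15, pandas 2.3.3, numpy 2.4.6, matplotlib 3.10.9, limma 3.58.1 and R 4.3.3. The fits were tested on simulated data.

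Genes named are, per comparison, up to 8 with the highest and 8 with the lowest change among called members with groups that do not overlap, those called in both cultivar comparisons, up to 5 of each sign for the interaction, the 10 highest means, and those named in the supplementary tables of the study. Not all are printed. Other genes (PCP001441 and PCP016021 between cultivars at 5 DAFB, PCP010204, PCP014920, PCP029534, PCP035390, PCP004025, PCP015626, PCP045133 and those set aside) were chosen after their values were seen. The members and gene lists were chosen with earlier results of these data known. Alternatives tried were 0.1 as pseudocount, no filter, a filter at FPKM 10, TPM, quantile normalization, 1 fit of all libraries, array weights, a replicate block, each library left out, and the adjusted P as threshold. FPKM has no counts beside it, so no interval for single libraries is given.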

Additional observations from a re-analysis of the deposited data

Results flagged for a closer look

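For 9 genes, the change from 2 to 5 DAFB differed between ‘RCF’ and ‘CF’ by the interaction term of limma (unadjusted P below 0.05 and a difference of 1 or more in size). With all libraries and the main settings, none had an adjusted P under 0.05. The difference, ‘RCF’ minus ‘CF’ on the log2(FPKM + 1) scale, was 2.33 for PCP013494 (ACC oxidase 1), 1.34 for PCP015626 and 1.28 for PCP015230. For PCP007801, only read as a gibberellin 2-beta-dioxygenase, the difference was 1.24. PCP013001 had 1.15 and PCP029751 1.13. The difference was -1.95 for PCP013133, -1.46 for PCP015143 and -1.43 for PCP016837. Without ‘CF1’ replicate 3, 4 of these 9 were still called, PCP007801 at 1.34, PCP013133 at -1.90, PCP013494 at 1.82 and PCP015230 at 1.05. No group had 4 or more libraries, so single libraries were not tested as outliers.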

How the results depend on the processing

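With a filter at FPKM 10, which left 36 of the 82 members, the called members were 2 for ‘RCF1’ vs. ‘CF1’, 0 by limma for ‘RCF2’ vs. ‘CF2’ (PCP013133 and PCP026814 are below this filter), 16 in ‘RCF2’ vs. ‘RCF1’, 13 in ‘CF2’ vs. ‘CF1’ and 4 for the difference between cultivars. Array weights gave 18 in ‘RCF1’ vs. ‘CF1’ and 14 for the difference, against 9 and 9. All of these held after adjustment, beside 1421 and 1502 of all 25707 tested genes. In ‘RCF2’ vs. ‘CF2’, against 2, a pseudocount of 0.1 gave 7 and 1 fit of all libraries gave 1. With the adjusted P as threshold, 1 member was called in ‘RCF1’ vs. ‘CF1’ and 0 for the difference (limma; 15 had an unadjusted P under 0.05, 18.3%, against 15.8% of all tested genes). Leaving out 1 library gave 4 to 27 calls between cultivars at 2 DAFB, 2 to 3 between them at 5 DAFB, 26 to 30 in ‘RCF2’ vs. ‘RCF1’, 23 to 33 in ‘CF2’ vs. ‘CF1’ and 5 to 26 for the difference. The replicate block gave 10, 2, 29, 26 and 9 calls in the same order, with 0 adjusted calls in ‘RCF1’ vs. ‘CF1’ and 17 in ‘CF2’ vs. ‘CF1’. Same-numbered libraries correlated from -0.18 to 0.33 in their deviations from the group means, and not every pair of any comparison was over 0.1, so the numbers were not taken to pair the libraries. In ‘RCF2’ vs. ‘CF2’ all 3 same-numbered pairs were above 0, at 0.05 to 0.20. The other counts stayed within 1.5 times. Of 39 named fold changes, 22 stayed called under all alternatives that gave a value, and of 607 values 538 kept their call, 69 lost it and 0 reversed. The cause of these shifts was not tested. Low FPKM rests on few fragments, which limits genes such as PCP013133 in ‘CF’.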
